A study of Mus musculus with 4 samples.

Results

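Cells of the developing knee were compared for the transcripts of 10 secreted inhibitors of Wnt signalling, out of 32285 genes counted in the files. The members are Sfrp1, Sfrp2, Frzb, Sfrp4, Sfrp5, Dkk1, Dkk2, Dkk3, Wif1 and Sostdc1, taken by name. Secreted frizzled-related proteins (the Sfrp genes and Frzb) carry a cysteine-rich domain like that of the frizzled receptors and bind Wnt ligands outside the cell. Dkk1 and Dkk2 act on the Wnt co-receptors Lrp5 and Lrp6 together with Kremen proteins, Wif1 binds Wnt ligands, and Sostdc1 antagonises both Bmp and Wnt signals. Wnt signalling takes part in setting off the joint interzone, the strip of Gdf5-expressing cells between cartilage elements, from the cartilage around it. The study sequenced single cells from mouse hindlimb cartilage anlagen, from the regions of the future knee joint, released with collagenase D and labelled as interzone. There were 4 libraries, 1 per condition, and the number of embryos pooled in each is not stated; the study's methods give at least 3 embryos per genotype for its experiments in general. The 2 control libraries, E13.5 and E14.5, carry the genotype label No cre. The other 2 libraries, both E14.5, carry floxed alleles of the glucose transporter genes Glut1 (Slc2a1) and Glut3 (Slc2a3) with Prx1Cre, which recombines in limb mesenchyme: Prx1Cre;Glut1f/f;Glut3f/+, titled G1KO, and Prx1Cre;Glut1f/f;Glut3f/f, called DCKO. Values of 4 libraries follow the order E13.5 control, E14.5 control, the library labelled G1KO and the library labelled DCKO.

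The libraries held 12769, 9707, 11690 and 11602 cell barcodes and 100344565, 84188147, 97110697 and 91574038 UMIs (unique transcript counts). Kept were 12446, 9305, 11264 and 11305 cells in which 200 to 6000 genes were detected and no more than 10% of the UMIs were mitochondrial, at a median of 6176, 7279, 6757 and 6379 UMIs. Levels are CPM, the UMIs of a gene per 1000000 UMIs summed over the cells of a class. They are read at the 3′ end and not scaled by transcript length, so a level compares a gene with itself across classes and libraries. There are no replicates, and every interval, in brackets after a value, is a 95% interval of counting error only. A member is said to have risen, fallen or changed when its CPM differed at least 2-fold and 1 of the groups had at least 20 of its UMIs.

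Slc2a1, the gene targeted in both mutant libraries, was not lower in them. Its level over all kept cells was 48.1, 64.7, 339 and 428 CPM, and in chondrocyte-like cells 72.0, 81.0, 471 and 479 CPM, higher in both libraries labelled as mutant. Slc2a3 stood at 5.13, 3.38, 4.32 and 2.70 CPM over all kept cells, at 5.24, 3.90, 3.55 and 1.13 CPM in interzone-like and at 4.54, 2.96, 4.11 and 1.57 CPM in chondrocyte-like cells, lowest in the library labelled DCKO. In fibroblast-like cells it was 7.23, 6.43, 4.15 and 12.6 CPM, the last from 48 UMIs in 16 cells. A 3′ tag outside the deleted stretch is counted whether or not the deletion took place, so these levels do not check the genotypes, which are given below as labels. Sex also differed between the libraries: Xist was detected in 64.7, 0.172, 92.2 and 91.2% of cells and at least 1 Y-linked gene in 18.4, 65.9, 0.0355 and 0.0265%. By these genes the E13.5 control was mixed. At E14.5 the control was mostly male and both mutant libraries female, and sex and genotype cannot be told apart. Pairs of libraries shared 25 to 40 barcodes.

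Cells were put into classes by fixed marker genes that include none of the 10 members. Interzone-like cells had a Gdf5 UMI and at least 2 of 5 other markers (Osr2, Creb5, Tgfbi, Erg and Trps1), chondrocyte-like cells at least 6 of 8 cartilage matrix genes such as Col2a1, and fibroblast-like cells at least 4 of 6 markers such as Dcn and Col1a1. They numbered 2141, 1131, 1233 and 559 interzone-like, 1722, 4850, 4920 and 6257 chondrocyte-like and 1345, 480, 1072 and 712 fibroblast-like cells, and 5345, 2007, 2794 and 2773 cells stayed unassigned. The interzone-like class is a range rather than a separate group: 42.3, 59.0, 62.4 and 77.6% of it met only the minimum, and 189, 129, 181 and 202 more cells were 1 marker short. Its cells had a median of 4, 4, 5 and 6 of the 8 chondrocyte markers, so the class of the library labelled DCKO was the most cartilage-like. Within the class Gdf5 stood at 392, 262, 250.2 and 163 CPM and Col2a1 at 1098, 2268, 3084 and 3083 CPM.

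Added over the 10 members, the inhibitors were most abundant in interzone-like cells of both controls, with less in fibroblast-like and less again in chondrocyte-like cells. Their sum in interzone-like cells was 1814, 1861, 1387 and 898 CPM, against 434, 394, 358 and 303 CPM in chondrocyte-like and 654, 816, 851 and 993 CPM in fibroblast-like cells. Unassigned cells lay between interzone-like and fibroblast-like cells in both controls, at 708 and 1219 CPM. Tendon-like cells of the controls had 598 and 847 CPM. The sum in interzone-like cells was lowest in the library labelled DCKO, whereas in fibroblast-like cells it was highest there. Sfrp2 made up 90.3% of the members' UMIs in interzone-like cells at E13.5, so the sum is largely that gene, and each member is described by itself. At least 3 members were found in 24.0, 36.9, 29.4 and 32.2% of interzone-like cells, at median depths of 10004, 9677, 10314 and 10816 UMIs against 4979, 5421, 5000 and 5612 for those with 1 member. The share in chondrocyte-like cells was 17.9, 18.5, 17.5 and 14.2%, and depth was not matched between these groups of cells.

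**Figure D1:**
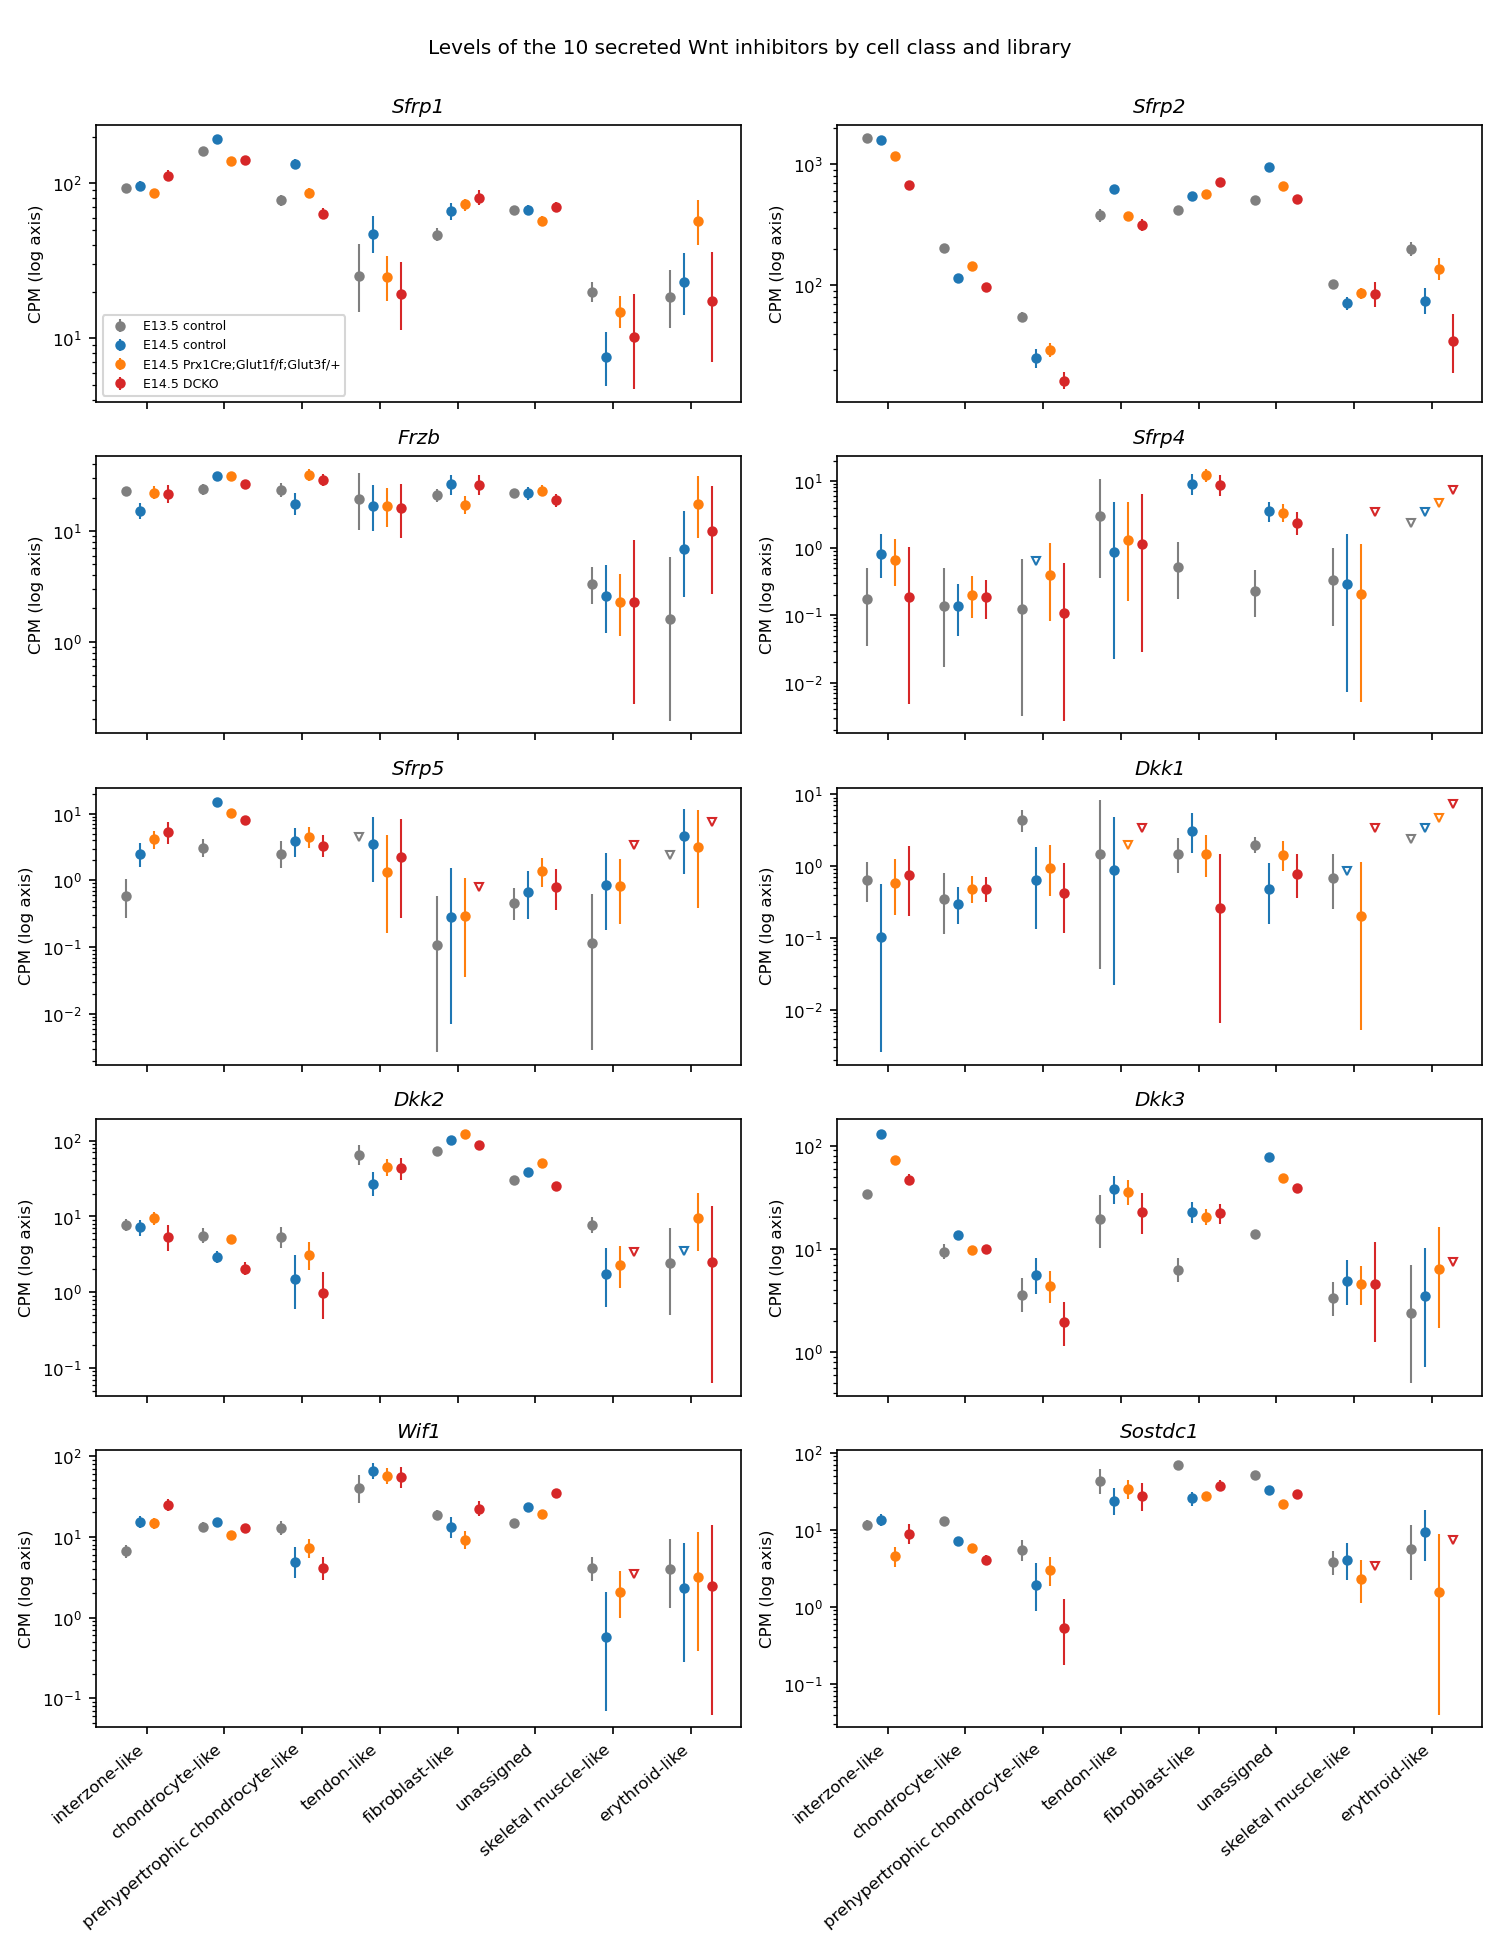
CPM (log axis) of each of the 10 inhibitors by cell class in the 4 libraries, with 95% intervals of counting error and open triangles at the floor of 3 counts where no UMI was found. Sfrp2 reached 1637 and 1580.1 CPM in interzone-like cells of the controls, while among classes with at least 50 cells Sfrp1 was highest in chondrocyte-like cells of both controls, Dkk2 in fibroblast-like cells of all 4 libraries and Wif1 in tendon-like cells of all 4.

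Sfrp2 (ENSMUSG00000027996, chr3:83766321-83774316, plus strand, on GRCm38 in GENCODE M21, as for the positions that follow) marked the interzone end of the tissue. Its level in interzone-like cells was 1637 (1618 to 1656), 1580.1 (1555 to 1605), 1171 (1150.5 to 1192) and 673 (651 to 695) CPM. Unassigned cells came next in both controls and in the library labelled G1KO, at 506, 952, 661 and 514 CPM, and fibroblast-like cells had 419, 548, 566 and 708 CPM. The order at the top was not clear in the library labelled DCKO: fibroblast-like cells, at 708 (681 to 735) CPM, and interzone-like cells had overlapping intervals. The lowest level among classes of at least 50 cells was in prehypertrophic chondrocyte-like cells, at 55.3, 25.0, 29.4 and 16.3 CPM. The share of all Sfrp2 UMIs that lay in interzone-like cells was 54.1, 45.8, 37.3 and 19.8%.

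Nearly every interzone-like cell of the controls carried Sfrp2. A UMI was found in 97.0, 90.9, 90.9 and 81.4% of interzone-like cells, and in 86.1, 80.0, 75.9 and 58.5% when each cell was thinned to 2000 UMIs. Erythroid-like cells should lack the gene, so its UMIs in them can come from free RNA or from doublets. The share in erythroid-like cells was 20.7, 11.96, 28.4 and 11.9%, or 10.3, 5.13, 13.2 and 5.17% thinned. Their median depths were 7604, 8856, 8030 and 7894 UMIs against 6289, 6702, 6574 and 7395 in interzone-like cells. Chondrocyte-like cells lay between, with 52.1, 41.3, 45.9 and 36.5%, or 25.4, 17.3, 20.8 and 15.8% thinned, at median depths of 7130, 8058, 8003 and 7431 UMIs. Their level, 203, 115, 145 and 97.2 CPM, was close to that of erythroid-like cells in the E13.5 control and the library labelled G1KO (199.6, 74.8, 137 and 34.7 CPM), although the share of cells with a UMI was higher in chondrocyte-like cells of every library. The erythroid-like level at E13.5 comes from 249 UMIs in 30 cells.

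Sfrp1 (ENSMUSG00000031548, chr8:23411502-23449632, plus strand), a close relative that also binds Wnts, had another arrangement, with cartilage in the lead. Here and for the genes that follow, orders of classes cover those with at least 50 cells. It was found in chondrocyte-like cells at 162, 193, 139 and 141 CPM and in interzone-like cells, the next class in the E13.5 control and the library labelled DCKO, at 92.7, 96.5, 86.5 and 112 CPM. Chondrocyte-like cells were highest in both controls and in the library labelled DCKO, with intervals apart from the next class. In the library labelled G1KO, cells with at least 3 glial or neuronal markers overlapped with them, at 144 CPM. Those cells had a median of 8 of 8 chondrocyte markers there. Fibroblast-like cells had 46.7, 66.0, 73.0 and 80.9 CPM and skeletal muscle-like cells 19.9, 7.53, 14.8 and 10.2 CPM.

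Frzb (ENSMUSG00000027004, chr2:80411970-80447625, minus strand), first isolated from cartilage, was spread more evenly over the skeletal classes. Chondrocyte-like cells had 23.7, 31.4, 31.5 and 26.5 CPM, interzone-like cells 22.7, 15.2, 22.1 and 21.5 CPM and skeletal muscle-like cells 3.30, 2.60, 2.26 and 2.27 CPM. Sfrp4 (ENSMUSG00000021319, chr13:19623104-19632994, plus strand) was nearly silent at E13.5, with 23 UMIs in all kept cells. It stood at 0.532, 8.95, 12.1 and 8.67 CPM in fibroblast-like and 0.233, 3.52, 3.34 and 2.36 CPM in unassigned cells, and fibroblast-like cells led in each E14.5 library, among classes with at least 50 cells, overlapping with osteogenic-like cells in the library labelled G1KO. The 21 osteogenic-like cells of the E14.5 control had 34.3 CPM from 6 UMIs. Sfrp5 (ENSMUSG00000018822, chr19:42197971-42202252, minus strand) ran with cartilage, at 3.07, 14.7, 10.1 and 8.05 CPM in chondrocyte-like and 0.576, 2.46, 4.12 and 5.28 CPM in interzone-like cells. Erythroid-like cells had 0, 4.60, 3.15 and 0 CPM from 0, 4, 2 and 0 UMIs, and where they had none the upper limit was 2.96 CPM at E13.5 and 9.15 CPM for the label DCKO, so Sfrp5 in interzone-like cells is not told apart from background in any library. Cells with at least 3 glial or neuronal markers, 33 to 65 per library, had 21.1, 47.7, 55.2 and 8.13 CPM of Sfrp5. Their median of chondrocyte markers was 3, 8, 8 and 8 of 8.

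Among the Dkk genes, Dkk2 and Dkk3 split the tissue between them, and Dkk1 was close to absent. Dkk2 (ENSMUSG00000028031, chr3:132085292-132180304, plus strand) was highest in fibroblast-like cells of all 4 libraries, at 72.3 (67.0 to 77.9), 102 (91.9 to 113), 124 (115 to 132) and 87.7 (78.6 to 97.7) CPM. Tendon-like cells at E13.5 and endothelial-like cells in the library labelled DCKO overlapped with that level, at 65.4 and 65.2 CPM. Chondrocyte-like cells had 5.58, 2.94, 5.02 and 2.05 CPM and interzone-like cells 7.78, 7.18, 9.49 and 5.28 CPM, so Dkk2 was low on both sides of the joint line. A Dkk2 UMI was found in 28.5, 36.2, 40.5 and 30.9% of fibroblast-like cells (11.99, 17.0, 20.2 and 16.0% thinned; median depths 5938, 6668, 5860 and 4898 UMIs) and in 1.38, 0, 7.46 and 2.38% of erythroid-like cells, where the 0 has an upper limit of 3.93%.

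Dkk3 (ENSMUSG00000030772, chr7:112116017-112159057, minus strand), a divergent member of the family whose action on Wnt signals varies with context, followed Sfrp2 rather than Dkk2. In interzone-like cells it stood at 34.0 (31.3 to 36.8), 130.2 (123 to 138), 73.1 (68.0 to 78.5) and 47.0 (41.3 to 53.2) CPM, the highest class of each library among those with at least 50 cells. The 36 osteogenic-like cells of the library labelled DCKO had 55.3 (29.4 to 94.6) CPM. Unassigned cells had 13.8, 77.4, 48.5 and 38.7 CPM, chondrocyte-like cells 9.42, 13.54, 9.72 and 9.92 CPM and fibroblast-like cells 6.27, 22.7, 20.4 and 22.1 CPM. The interval of the next class overlapped with that of interzone-like cells at E13.5 (tendon-like cells) and in both mutant libraries (osteogenic-like and unassigned cells). A Dkk3 UMI was found in 21.1, 55.9, 38.0 and 31.7% of interzone-like cells, or 6.93, 25.4, 15.5 and 11.5% thinned, and in 2.07, 3.26, 2.99 and 0% of erythroid-like cells, where the 0 has an upper limit of 8.41%. Dkk1 (ENSMUSG00000024868, chr19:30545863-30549665, minus strand) had 137, 34, 70 and 46 UMIs in all kept cells. Its level in prehypertrophic chondrocyte-like cells was 4.35, 0.642, 0.944 and 0.430 CPM, with 35 UMIs at E13.5 and 3 in the E14.5 control. Fibroblast-like cells had 1.49, 3.08, 1.48 and 0.263 CPM and were highest in the E14.5 control, with 11 UMIs, and osteogenic-like cells were highest at E13.5 and in the library labelled G1KO, at 8.92 and 6.90 CPM from 5 and 3 UMIs, each overlapping with the next class.

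Wif1 (ENSMUSG00000020218, chr10:121033960-121100650, plus strand) was highest in tendon-like cells in all 4 libraries with intervals apart from the next class, at 40.2 (26.5 to 58.4), 65.8 (51.7 to 82.4), 56.7 (45.3 to 70.1) and 54.7 (40.3 to 72.5) CPM. Those classes held 63, 101, 141 and 91 cells and 27, 75, 85 and 48 of the 1110, 1214, 1104 and 1410 Wif1 UMIs, while 17.1, 54.4, 42.9 and 49.6% lay in chondrocyte-like and 40.3, 20.3, 22.6 and 28.4% in unassigned cells. A Wif1 UMI was found in 25.4, 37.6, 36.9 and 31.9% of them, or 6.67, 10.9, 10.1 and 10.2% thinned, and in 2.76, 2.17, 2.99 and 2.38% of erythroid-like cells, at median depths of 7447, 10075, 9144 and 8339 UMIs in tendon-like cells. Unassigned cells had 14.9, 23.4, 18.9 and 34.9 CPM, interzone-like cells 6.68, 15.4, 14.8 and 24.7 CPM, chondrocyte-like cells 13.3, 15.05, 10.5 and 12.96 CPM and fibroblast-like cells 18.6, 13.1, 9.18 and 22.3 CPM. Sostdc1 (ENSMUSG00000036169, chr12:36314139-36318452, plus strand) stood at 68.5, 25.5, 27.1 and 37.3 CPM in fibroblast-like and 50.7, 33.2, 21.5 and 29.1 CPM in unassigned cells. Osteogenic-like cells were highest at E13.5, at 96.3 CPM, and overlapped with fibroblast-like cells, while in the E14.5 control and the library labelled DCKO fibroblast-like and unassigned cells led among classes with at least 50 cells and overlapped with each other. Smaller osteogenic-like classes there, of 21 and 36 cells, had 51.4 and 55.3 CPM. Interzone-like cells had 11.5, 13.3, 4.50 and 8.87 CPM of Sostdc1. In the library labelled G1KO alone, cells with at least 3 glial or neuronal markers had 75.8 CPM, from 65 cells.

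Low levels of several members do not stand out from those of erythroid-like cells, which are taken as background. The interval did not lie above that of erythroid-like cells of the same library, and the level is not told apart from background, in interzone-like cells for Sfrp4, Dkk1 and Sostdc1 in all 4 libraries, for Dkk2 in all but the E14.5 control, for Frzb in all but the E13.5 control and for Wif1 at E13.5. In chondrocyte-like cells this held for Sfrp4, Dkk1, Dkk2 and Sostdc1 in all 4 libraries, for Sfrp5 in all but the E14.5 control, for Sfrp2 at E13.5 and in the library labelled G1KO, and for Frzb, Dkk3 and Wif1 in both mutant libraries. The erythroid-like classes are small, 145, 92, 67 and 42 cells, so these limits are wide. Doublets stayed in, and cells with enough globin were called erythroid-like whatever other markers they had. This background can thus hold UMIs of doublets beside free RNA, and the part of each was not tested. At E13.5 Gdf5 had 42 UMIs in 10 erythroid-like cells. A level not told apart from this background can still come from the class itself.

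Cells without any Gdf5 UMI were also ordered by how many of the 8 chondrocyte markers they had; the chondrocyte-like class is defined by the same markers, so the upper bins restate it. In the E14.5 control, Dkk2 went from 71.3 CPM in cells with 0 to 1 markers to 1.93 CPM in cells with all 8, and Sfrp4 from 7.41 to 0.0734 CPM. Sfrp1 ran the other way, from 55.5 to 199 CPM, as did Sfrp5, from 0.517 to 14.4 CPM. Wif1 and Sostdc1 peaked between the ends: Wif1 stood at 9.82, 23.3, 43.5, 42.4 and 9.61 CPM with 0 to 1, 2 to 3, 4 to 5, 6 to 7 and 8 markers. Sostdc1 stood at 23.9, 31.8, 40.2, 24.6 and 3.89 CPM in the same bins.

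The first comparison asked how the inhibitors divide between interzone and cartilage. At E13.5 interzone-like cells had more Sfrp2 and Dkk3 than chondrocyte-like cells and less Sfrp5. Sfrp2 differed 8.06-fold, a log2 ratio of 3.01 (2.96 to 3.07), and Dkk3 3.61-fold, a log2 ratio of 1.85 (1.58 to 2.13). Sfrp5 was 5.33-fold lower, a log2 ratio of -2.41 (-3.57 to -1.40). At this age Sfrp5 in both classes and Sfrp2 in chondrocyte-like cells are not told apart from background. Past the fold were 3 of the 8 members with at least 20 UMIs, and 10.3% of all genes with that many UMIs (7.78% higher and 2.55% lower) differed as much. The median log2 ratio of the members was -0.11, beside 0.07 for all genes. With unsupervised clusters, named by the same markers, in place of the marker classes the log2 ratios were 1.46 for Sfrp2, 1.01 for Dkk3 and -1.17 for Sfrp5, all still past the fold. Each cluster was named by the class whose markers had the highest mean standardised level, its naming score. With the clusters of a score of at least 0.8, an alternative chosen after seeing the data, Dkk3 was 0.88, short of the fold, while Dkk2, at 0.48 (0.07 to 0.90), and Sostdc1 were 1.19 and 1.35, past it. Wif1 had a log2 ratio of -0.99 (-1.33 to -0.65), just short of the fold, and past it at -1.05 with TMM scaling, which sets the totals by genes of middling ratio, -1.27 as a mean over cells and -1.75 with at least 3 Gdf5 UMIs, but -0.38 with clusters. Sostdc1 moved from -0.16 to -1.003 when interzone-like cells needed at least 3 Gdf5 UMIs.

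In the E14.5 control the same division took in 6 of 8 members with enough UMIs, 3 in each direction, where 13.8% of all genes (9.81% higher and 3.95% lower) differed as much. Sfrp2, Dkk3 and Dkk2 were higher in interzone-like cells, and Sfrp5, Frzb and Sfrp1 were higher in chondrocyte-like cells. Sfrp2 differed 13.7-fold (log2 ratio 3.78, 3.73 to 3.82), Dkk3 9.62-fold (log2 ratio 3.27, 3.12 to 3.41) and Dkk2 2.44-fold (log2 ratio 1.29, 0.85 to 1.72). Sfrp5 had a log2 ratio of -2.58 (-3.24 to -2.00), Frzb of -1.05 (-1.30 to -0.80) and Sfrp1 of -1.001 (-1.10 to -0.90), the last at the limit of the call. Sfrp5 and Frzb in interzone-like cells and Dkk2 in chondrocyte-like cells are not told apart from background here. The Sfrp1 ratio was -0.99 with a stricter cell filter, -0.88 when any cell with a Gdf5 UMI was taken as interzone-like and -0.87 with at least 3 Gdf5 UMIs, each short of 2-fold. With clusters Frzb was -0.61, short of it as well, and Dkk2 was 3.30. Sfrp5 ranged from -4.53 with at least 3 Gdf5 UMIs to -1.57 with clusters. Sostdc1, at 0.88 (0.58 to 1.18), was 2.20 with clusters and -0.11 with at least 3 Gdf5 UMIs, and so has no settled direction. The median of the members was 0.46, beside 0.14 for all genes. TMM scaling shifts all ratios of this comparison by -0.19, which turned Wif1 from 0.03 to -0.16.

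Sfrp2 and Dkk3 also climbed with Gdf5 itself. Cells of the skeletal classes were binned by 0, 1, 2 to 3, 4 to 7 and 8 or more Gdf5 UMIs. These classes are interzone-, chondrocyte-, prehypertrophic chondrocyte-, osteogenic-, tendon- and fibroblast-like and unassigned cells. In these bins Sfrp2 in the E13.5 control stood at 351, 962, 1551, 2166 and 2609.9 CPM. In the E14.5 control the same bins gave 277, 1037, 1595, 2254 and 2951 CPM, the last from 28 cells. Median depth in these bins of the E14.5 control was 7184, 6779, 6448, 6969 and 8894 UMIs. Sfrp2 thus climbed at like depth up to the bin of 4 to 7 Gdf5 UMIs, while the top bin was deeper. Depths of the E13.5 bins are not given. Dkk3 climbed less steeply at E13.5, from 10.2 to 49.9 CPM, than in the E14.5 control, from 24.3 to 226 CPM. Wif1 and Sostdc1 ran against Gdf5 at E13.5: Wif1 went from 15.2 CPM without Gdf5 to 1.63 CPM with 8 or more, and Sostdc1 from 39.5 to 4.88 CPM. Among interzone-like cells of the E14.5 control, the 1028 with an Sfrp2 UMI had 144 CPM of Dkk3 and the 103 without one 33.2 CPM, at median depths of 6246 and 10242 UMIs, so Dkk3 was higher in the cells with Sfrp2.

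**Figure D2:**
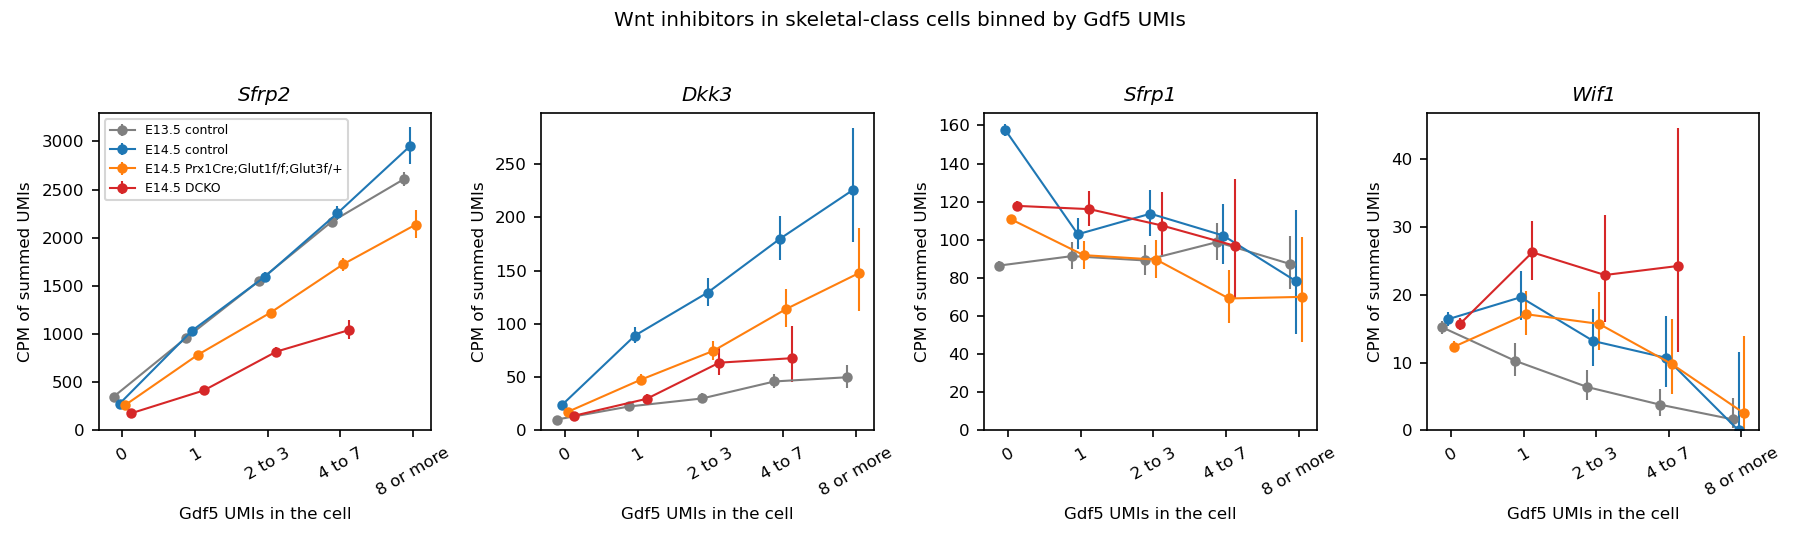
CPM of Sfrp2, Dkk3, Sfrp1 and Wif1 in cells of the skeletal classes binned by their Gdf5 UMIs, one line per library with 95% intervals of counting error. The top bin of the library labelled DCKO is not drawn because it held 1 cell. With 4 to 7 Gdf5 UMIs, Sfrp2 stood at 2254 CPM in the E14.5 control, against 1042 CPM where the label is DCKO.

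The E14.5 and E13.5 controls were compared to see how the inhibitors change over a day of joint formation; age and sex differ together here and cannot be told apart. In interzone-like cells Dkk3 rose 3.83-fold (log2 ratio 1.94, 1.80 to 2.08), from 34.0 to 130.2 CPM, while Sfrp2 had a log2 ratio of -0.05 (-0.08 to -0.02), and of 0.13 with clusters. Wif1 rose as well, by a log2 ratio of 1.20 (0.84 to 1.57), from an E13.5 level that is not told apart from background. The Sfrp5 ratio, 2.10 (0.98 to 3.32), also passed the fold, but between levels that are not told apart from background. Cartilage and joint markers differed in the same class, Col2a1 with a log2 ratio of 1.05 (1.02 to 1.07) and Gdf5 with -0.58 (-0.65 to -0.52), and their part in these changes was not tested. These were 3 of 8 members with enough UMIs, all upward, where 8.6% of all genes (4.31% higher and 4.29% lower) changed as much, and the median was 0.13 beside -0.05 for all genes. With clusters the Wif1 ratio was 0.34, and with at least 3 Gdf5 UMIs the Sfrp5 ratio was 0.79, both short of the fold, so Dkk3 is the member whose rise held in each alternative that gave a value.

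In fibroblast-like cells Sfrp4 came up with age, and Sostdc1 went down. Sfrp4 rose from 0.532 (0.173 to 1.24) to 8.95 (6.12 to 12.6) CPM, counts of 5 and 32 UMIs and a log2 ratio of 4.07 (2.70 to 5.79). Its E13.5 level and that of Dkk3 in this class are not told apart from background. Dkk3 rose here too, by 1.85 (1.35 to 2.36) on the log2 scale, and Sostdc1 fell, with a log2 ratio of -1.43 (-1.76 to -1.11). This made 3 of 8 members with enough UMIs, where 7.49% of all genes (3.55% higher and 3.94% lower) changed as much, with a median of 0.44 beside -0.08. Unassigned cells, not part of that count, had log2 ratios of 3.92 (2.73 to 5.33) for Sfrp4 and 2.49 (2.32 to 2.67) for Dkk3.

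In chondrocyte-like cells, of 8 members with enough UMIs only Sfrp5 passed the fold between the controls, where 10.2% of all genes (5.03% higher and 5.2% lower) did, which is about the share of the members. Sfrp5 rose 4.80-fold, from 3.07 (2.23 to 4.12) to 14.7 (13.6 to 15.9) CPM (log2 ratio 2.26, 1.82 to 2.74), where the first level is not told apart from background and the second is above it. The median was 0.22 beside -0.13 for all genes, and TMM scaling shifts all ratios by 0.17. Clusters moved several low ratios, Sfrp2 from -0.82 to -2.49, Sostdc1 from -0.83 to -1.51, Dkk2 from -0.92 to -2.15 and Dkk3 from 0.52 to -0.45. With the clusters of a score of at least 0.8, Sostdc1 was -0.50, short of the fold, and Sfrp2 and Dkk2 were past it at -2.32 and -1.76. In prehypertrophic chondrocyte-like cells the Dkk1 level of 4.35 CPM at E13.5 compared with 0.642 CPM at E14.5, a log2 ratio of -2.76 (-5.11 to -1.09) that rests on 3 UMIs on 1 side.

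The genotype comparisons ask whether the inhibitors depend on glucose transport in limb mesenchyme. They share the E14.5 control. The Slc2a1 UMIs, higher in both libraries labelled as mutant, do not check the genotypes, as given above, so a direction is one between libraries as labelled. Slc2a1 itself stood at 52.4, 45.5, 239 and 268 CPM in interzone-like cells. In interzone-like cells Sfrp2 and Dkk3 were both lower in the library labelled DCKO than in the control by the marker classes, though not past the fold in every alternative. Among classes with at least 50 cells, each of these members was highest in interzone-like cells of both controls, with overlapping intervals for Dkk3 at E13.5. From 1580.1 CPM in the control, Sfrp2 came to 673 CPM in the library labelled DCKO, and so fell 2.35-fold (log2 ratio -1.23, -1.29 to -1.18). Dkk3 went from 130.2 to 47.0 CPM and fell 2.77-fold (log2 ratio -1.47, -1.67 to -1.27). The Sfrp5 ratio also passed the fold, from 2.46 to 5.28 CPM (log2 ratio 1.10, 0.26 to 1.95), but both levels are not told apart from background. They were 3 of 8 members with enough UMIs, where 6.4% of all genes (0.9% higher and 5.5% lower) changed as much. The median was -0.11 beside -0.15 for all genes, and TMM scaling shifts all ratios by 0.12.

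These calls depend on how interzone-like cells are taken. The Sfrp2 ratio was -0.80 with clusters and -0.96 as a mean over cells, lower in the library labelled DCKO each time but under 2-fold. Clusters named as interzone in that library held 883 and 504 cells, the latter at a naming score of 0.558 and a median depth of 3464.5 UMIs, with no interzone marker among its 10 highest genes. Interzone clusters of 628, 523 and 461 cells in the E14.5 control also had none there, at scores of 1.322, 1.515 and 1.184. Without the cluster of 504 cells the cluster ratios were -0.18 for Sfrp2 and -0.58 for Dkk3, both short of the fold, and 1.31 for Wif1, which had 0.68 (0.33 to 1.03) by the marker classes. No change of these members was past the fold in the same direction under every definition of the class. The Sfrp5 ratio turned to -2.19 with clusters, was 0.89 as a mean over cells and 2.60 with at least 3 Gdf5 UMIs, the last with too few UMIs for a call. Dkk2, at -0.44 (-1.13 to 0.21), was -1.17 with clusters, past the fold, and -0.49 without the cluster of 504 cells. Sfrp5 was -2.74 without it. Sfrp1, at 0.22 (0.07 to 0.37), had no settled direction, with -0.40 by clusters, 0.02 without that cluster and -0.20 with at least 3 Gdf5 UMIs. Cartilage markers moved with the result: 244 of 559 interzone-like cells of the library labelled DCKO had 7 to 8 of 8 chondrocyte markers, against 314 of 1131 in the control. Among interzone-like cells with 0 to 2, 3 to 4, 5 to 6 and 7 to 8 chondrocyte markers, Sfrp2 stood at 2489, 2566, 1941 and 563 CPM in the control. The same bins gave 2018, 2055, 1542 and 579 CPM where the label is G1KO and 1699, 1632, 985 and 226 where it is DCKO. By these bins Sfrp2 was lower in the library labelled DCKO at every marker count, and the difference over the whole class also contains the larger share of cells with many cartilage markers. The part of each was not tested.

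Dkk3 behaved alike in those bins, with 186, 189, 159.7 and 64.7 CPM in the control and 86.3, 104, 64.4 and 23.6 CPM in the library labelled DCKO. Grouped by Gdf5, the library labelled DCKO was again lowest: with 2 to 3 Gdf5 UMIs Sfrp2 stood at 1595 CPM in the control, at 1223 for the label G1KO and at 818 for the label DCKO. Few cells of the library labelled DCKO had more Gdf5 than that, 35 with 4 to 7 UMIs and 1 with 8 or more. Fibroblast-like cells did not follow, with Sfrp2 at a log2 ratio of 0.37 (0.28 to 0.45) against the control. Over all kept cells the log2 ratios were -1.05 (-1.08 to -1.03) for Sfrp2 and -1.21 (-1.30 to -1.11) for Dkk3. These ratios also contain the share of interzone-like cells, 12.2% of kept cells in the control and 4.94% in the library labelled DCKO. The part of that share was not tested.

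In the library labelled G1KO the interzone-like cells lay between: Sfrp2 stood at 1171 CPM, a log2 ratio of -0.43 (-0.47 to -0.40) to the control, and Dkk3 at 73.1 CPM, a log2 ratio of -0.83 (-0.96 to -0.70), neither past the fold. The change past it was Sostdc1, which fell from 13.3 (11.1 to 15.8) to 4.50 (3.31 to 5.99) CPM (log2 ratio -1.57, -2.08 to -1.07), 1 of 8 members with enough UMIs where 2.87% of all genes (0.825% higher and 2.05% lower) changed as much. Both Sostdc1 levels are not told apart from background. The median was -0.11 beside -0.12 for all genes. TMM scaling shifts all ratios by 0.12, which turned Wif1 from -0.06 to 0.06, and clusters gave it 0.52. Dkk2, at 0.40 (-0.05 to 0.86), turned to -1.38 with clusters and -1.28 with at least 3 Gdf5 UMIs, both past the fold. Set directly against each other, the library labelled DCKO and the library labelled G1KO differed past the fold in 0 of 8 members, with 2.91% of all genes (0.61% higher and 2.3% lower) doing so. Sfrp2 had a log2 ratio of -0.80 (-0.85 to -0.75) in that comparison and Sostdc1 of 0.98 (0.36 to 1.59), just short of the fold. Sostdc1 was 1.02 under a stricter cell filter, past the fold, and 1.17 with at least 3 Gdf5 UMIs, where it had too few UMIs for a call. Sfrp5, at 0.36 (-0.38 to 1.08), was -2.59 with clusters and -3.13 without the cluster of 504 cells. With clusters in place of the marker classes and that cluster left out, Sfrp2 was -0.10 and Dkk2 0.89. By the marker classes Dkk2 was -0.84 (-1.50 to -0.23). The median was 0.16 beside -0.02 for all genes.

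No inhibitor passed the fold in chondrocyte-like cells of either mutant library. Sfrp1, the leading member there, stood at 193 CPM in the control, with log2 ratios of -0.47 (-0.52 to -0.42) in the library labelled G1KO and -0.45 (-0.49 to -0.40) in the library labelled DCKO. Dkk2 in the library labelled G1KO, at 0.77 (0.45 to 1.10), was 1.59 with clusters, but these took in 102 cells of a cluster with Dkk2 itself and the fibroblast gene Dcn among its 10 highest genes, and without it the ratio was 0.56, short of the fold. The counts were 0 of 9 members for the library labelled G1KO, where 2.98% of all genes (1.66% higher and 1.32% lower) changed, and 0 of 9 for the library labelled DCKO, where 5.29% did (2.22% higher and 3.07% lower). The medians were -0.33 and -0.45, beside -0.10 and -0.16 for all genes, and TMM scaling shifts the ratios of the library labelled DCKO by 0.15. Sostdc1 in the library labelled DCKO, at -0.83 (-1.08 to -0.57), was -1.12 as a mean over cells, and Sfrp2, at -0.25, was 0.24 with clusters and -0.09 with those of a score of at least 0.8. In both mutant libraries the interzone side of the division was still past 2-fold for Sfrp2 and Dkk3, and the cartilage side was smaller than in the control. Interzone-like cells also had more chondrocyte markers there, a median of 5 for the label G1KO and 6 for the label DCKO, against 4 in the control. The part of this in the smaller differences was not tested. The log2 ratio of interzone-like to chondrocyte-like cells in the library labelled G1KO was 3.01 (2.97 to 3.05) for Sfrp2, 2.91 (2.74 to 3.08) for Dkk3 and 0.92 (0.56 to 1.26) for Dkk2, against -0.69 (-0.79 to -0.59) for Sfrp1, -0.51 (-0.72 to -0.31) for Frzb and -1.29 (-1.78 to -0.84) for Sfrp5. For the label DCKO the ratios were 2.79 (2.73 to 2.85), 2.24 (2.02 to 2.46) and 1.36 (0.71 to 1.97), against -0.34 (-0.46 to -0.22), -0.30 (-0.59 to -0.03) and -0.61 (-1.21 to -0.06), so Sfrp1, Frzb and Sfrp5 were each short of 2-fold there. In both mutant libraries Sfrp5, Frzb and Dkk2 in both classes are not told apart from background. The same holds for Dkk3 in their chondrocyte-like cells, and for Sfrp2 in those of the library labelled G1KO. No share of all genes is given for these divisions.

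**Figure D3:**
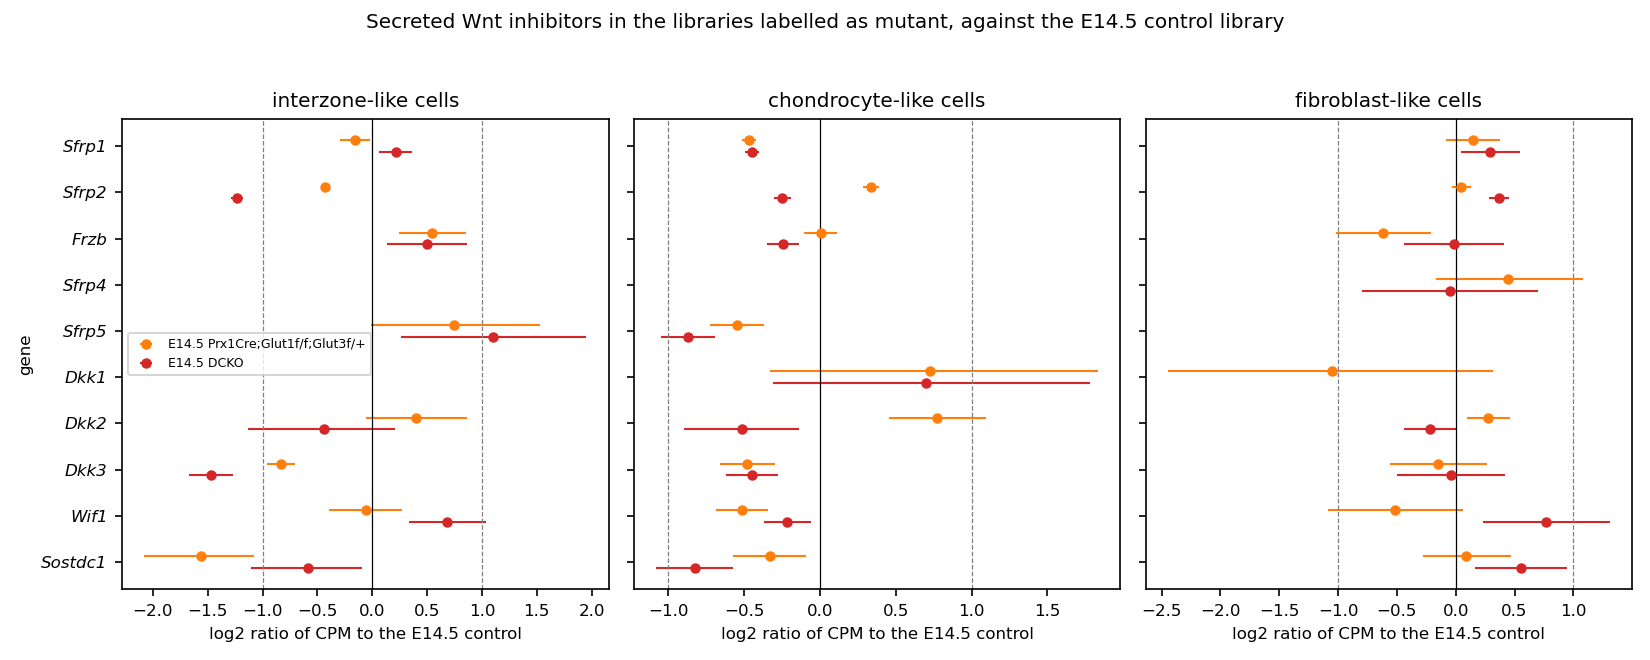
Log2 ratio of CPM to the E14.5 control of the inhibitors in interzone-like, chondrocyte-like and fibroblast-like cells, for the labels G1KO (Prx1Cre;Glut1f/f;Glut3f/+) and DCKO, with 95% intervals of counting error and dashed lines at the 2-fold limits. A member is drawn only where the mutant and control library together held at least 20 of its UMIs in the class. In interzone-like cells of the library labelled DCKO, Sfrp2 lay at -1.23 and Dkk3 at -1.47, while Sfrp2 in its fibroblast-like cells lay at 0.37.

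Genes with a pattern like that of a member were sought over 40 sums of UMIs per class and library, among 5604 genes; sums of 1 library are not independent, and the correlations are a description. For Sfrp2 the nearest genes were Gas1 (0.93), Pcdh18 (0.90) and Gas2 (0.90), and for Dkk3 Ltbp3 (0.94), Sgcd (0.89) and Col12a1 (0.88). Sfrp1 lay nearest to Sox9 (0.89), Scube3 (0.88) and Gpc6 (0.88), and Frzb to Snhg18 (0.91), Acot1 (0.90) and Tmem107 (0.88). The correlation of Sfrp1 with Frzb was 0.80, the highest between members, ahead of 0.79 for Sfrp2 with Dkk3. Dkk2 was nearest to Akap12 (0.91), Il11ra1 (0.89) and Hic1 (0.88), Wif1 to Angptl1 (0.83), Ntng1 (0.83) and Mkx (0.83) and Sostdc1 to Krt18 (0.83), Rac3 (0.81) and Dlg5 (0.81). Sfrp4 was nearest to Fmo1 (0.85), Ntrk2 (0.77) and Agtr2 (0.75), Sfrp5 to Sox10 (0.82), Col11a1 (0.82) and Fam180a (0.79) and Dkk1 to Alpl (0.69), Runx2 (0.67) and Prrx2 (0.67). Mkx, Sox10, Alpl and Runx2 in these lists are among the markers that defined the classes.

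In the E14.5 control, Wnt ligands, R-spondins with their receptors and other inhibitors leaned to the interzone side, beside 9.81% of all genes higher and 3.95% lower there. Of 19 Wnt ligand genes, 6 had enough UMIs and 3 of them were higher in interzone-like than in chondrocyte-like cells with 0 lower; Wnt11, a ligand of the non-canonical kind, had a log2 ratio of 2.39 (2.08 to 2.70), and Wnt4, a ligand known from developing joints, one of 0.96 (0.85 to 1.08), short of the fold. Receptors split 3 higher and 2 lower of 15, with Fzd9 lower at -1.23 (-1.38 to -1.08). None of the 3 receptors of Dkk and Sost proteins differed, and Kremen1, the partner of Dkk1 and Dkk2, had 0.75 (0.26 to 1.23). R-spondins and Lgr receptors, which strengthen Wnt signals, had 2 higher and 0 lower of 6, led by Lgr5 at 4.90 (4.49 to 5.33). Other secreted or surface inhibitors had 3 higher and 0 lower of 4: Igfbp4 at 2.02 (1.96 to 2.07), Tpbg at 1.72 (1.48 to 1.97) and Notum, which removes the lipid of Wnts, at 1.29 (0.87 to 1.70). Feedback and target genes had 2 higher and 1 lower of 10, with Lef1, a transcription factor of the pathway and one of its targets, lower at -1.16 (-1.35 to -0.98). Lgr5, Znrf3, Rnf43, Notum and Apcdd1 stand in more than 1 list.

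At E13.5 the genes past the fold were, among ligands 3 higher and 0 lower of 5, receptors 3 higher and 1 lower of 15, Dkk and Sost receptors 1 higher and 0 lower of 3, R-spondin and Lgr genes 2 higher and 0 lower of 5, other inhibitors 3 higher and 1 lower of 5 and targets 2 higher and 2 lower of 11, beside 7.78% of all genes higher and 2.55% lower. Kremen2 was higher in interzone-like cells at 1.80 (0.91 to 2.80) and Lef1 was lower at -2.86 (-3.15 to -2.58). Notum was lower as well, at -1.88 (-2.47 to -1.31), the reverse of its direction at E14.5. From E13.5 to E14.5 in interzone-like cells they were, among ligands 1 higher and 0 lower of 6, receptors 2 higher and 0 lower of 15, Dkk and Sost receptors 0 higher and 1 lower of 3, R-spondin and Lgr genes 0 higher and 1 lower of 5, other inhibitors 1 higher and 1 lower of 5 and targets 2 higher and 0 lower of 10, beside 4.31% of all genes higher and 4.29% lower. Kremen2 fell over that day, with a log2 ratio of -1.78 (-2.98 to -0.75), and Lef1 and Notum rose, with 1.91 (1.59 to 2.23) and 1.97 (1.38 to 2.59). While Dkk3 came up in the interzone-like class, this receptor of other Dkk proteins went down. In chondrocyte-like cells between the controls, ligands had 0 higher and 1 lower of 5, and receptors 2 higher and 0 lower of 15. Dkk and Sost receptors had 0 higher and 1 lower of 3, R-spondin and Lgr genes 1 higher and 0 lower of 6. Other inhibitors had 1 higher and 3 lower of 4 (Notum, Tpbg and Igfbp4), and targets 1 higher and 2 lower of 11. Of all genes there, 5.03% were higher and 5.2% lower. Compared with the E14.5 control, interzone-like cells of the library labelled DCKO had, among ligands 0 higher and 2 lower of 6, receptors 0 higher and 0 lower of 15, Dkk and Sost receptors 0 higher and 1 lower of 1, R-spondin and Lgr genes 0 higher and 2 lower of 5, other inhibitors 0 higher and 1 lower of 4 and targets 0 higher and 2 lower of 10, beside 0.9% of all genes higher and 5.5% lower. Lgr5 fell there with a log2 ratio of -2.73 (-3.31 to -2.20), Kremen1 with -1.47 (-2.61 to -0.48), Wnt11 with -1.17 (-1.66 to -0.70) and Rspo3 with -1.02 (-1.53 to -0.55), the direction in which most genes past the fold went in this comparison. TMM scaling shifts all its ratios by 0.12, which takes Rspo3 short of the fold. Cluster values are not given for these genes. In the library labelled G1KO the changes in that class were 2 genes, Lgr5 at -1.50 (-1.79 to -1.22) and the target Nkd2, named after its value was seen, or 1 of 5 R-spondin and Lgr genes and 2 of 10 targets with Lgr5 in both lists, where 2.87% of all genes changed. Of the listed genes with enough UMIs in chondrocyte-like cells, those past the fold were Rspo2, higher in the library labelled G1KO among 6 R-spondin and Lgr genes, where 2.98% of all genes changed, and Fzd6, lower in the library labelled DCKO among 15 receptors, where 5.29% did. Both were named after their values were seen.

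Promoters of 6 of the 10 members (Sfrp2, Frzb, Sfrp5, Dkk1, Dkk2 and Wif1) are in the RefSeq promoter table on GRCm38.p6, from 250 bases before to 50 after the annotated start. Shown are Sfrp2, which is highest in interzone-like cells of both controls, and Wif1, which is highest in tendon-like cells of all 4 libraries. Sfrp2 is chr3:83766071-83766370 and Wif1 is chr10:121033754-121034053, both on the plus strand and written 5′ to 3′. Capitals mark motifs searched on both strands: the core of the TCF/LEF factors of Wnt signalling (CTTTG), the core of hypoxia response elements (ACGTG or GCGTG) and the E-box CACGTG, which contains the hypoxia core. Of 32851 promoters in the table, 53.9% hold the TCF/LEF core, 43.8% the hypoxia core and 7.15% the E-box. The Sfrp2 promoter has 0 matches to the TCF/LEF core and 1 to the hypoxia core, and that of Wif1 has 1 and 2, the latter being its 1 E-box read on both strands. A match is a description of sequence and not evidence of binding.
Sfrp2: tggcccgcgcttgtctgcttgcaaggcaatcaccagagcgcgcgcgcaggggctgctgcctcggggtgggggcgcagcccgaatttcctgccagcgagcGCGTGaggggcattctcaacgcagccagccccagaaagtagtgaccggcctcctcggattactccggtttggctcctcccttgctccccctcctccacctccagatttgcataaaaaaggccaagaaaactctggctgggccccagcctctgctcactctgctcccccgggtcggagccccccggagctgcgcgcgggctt
Wif1: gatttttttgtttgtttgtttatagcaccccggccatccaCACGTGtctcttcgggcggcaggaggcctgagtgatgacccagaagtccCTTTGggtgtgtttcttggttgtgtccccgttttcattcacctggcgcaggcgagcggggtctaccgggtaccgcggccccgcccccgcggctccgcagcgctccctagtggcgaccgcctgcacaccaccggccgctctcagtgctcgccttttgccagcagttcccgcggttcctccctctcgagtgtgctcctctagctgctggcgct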

How the data were processed

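The deposited matrices hold raw UMI counts per gene and cell barcode, which the authors made from 10x 3′ libraries with Cell Ranger 6.1.2 on mm10. Kept cells had 200 to 6000 detected genes and no more than 10% of their UMIs from mitochondria; doublets stayed in. They were put into 12 classes by fixed markers. UMIs were summed per class and library and divided by the class total to give CPM, with exact Poisson intervals, exact conditional intervals for ratios and Clopper-Pearson intervals for shares, all at 95%. Libraries were grouped by labelled age and genotype, 1 per condition, so there are no p-values. A ratio against 0 UMIs would use a floor of 3 counts. The members and lists were chosen with earlier results of these data known. Named genes are the members and up to 4 genes of each pathway list (ligands, receptors, Dkk and Sost receptors, R-spondins and Lgr receptors, other inhibitors, targets) with the most UMIs. Alternatives were a stricter cell filter, all barcodes, Leiden clusters (2000 variable genes without the members, 30 components, 15 neighbours, resolution 1) and, added after seeing the data, those with a naming score of at least 0.8, cells with markers of 2 lineages left out, gates on Gdf5 alone, TMM, means over cells, UMI minimums, a 1.5-fold limit and thinning to 2000 UMIs. Genes like a member were ranked by Pearson correlation. The code was tested on simulated data. Tools were Python 3.11.15, numpy 2.4.6, scipy 1.17.1, pandas 2.3.3, scanpy 1.11.5, leidenalg 0.10.2, scikit-learn 1.9.0, matplotlib 3.10.9, R 4.3.3 and edgeR 4.0.16. Free RNA was not removed, and nothing was left out of the 4 libraries beside the filtered cells.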

Additional observations from a re-analysis of the deposited data

Results flagged for a closer look

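Each of these was picked out because the same comparison gave opposite directions in a pair of cell classes; each rests on 1 library per condition, and the difference was not tested. For Wif1 between the E14.5 and E13.5 controls, the log2 ratio was 1.20 (0.84 to 1.57) in interzone-like and -0.50 (-0.998 to -0.03) in fibroblast-like cells, 1.70 apart; the E13.5 level in interzone-like cells is not told apart from background. For Sfrp2 between the library labelled DCKO and the E14.5 control, it was -1.23 (-1.29 to -1.18) in interzone-like and 0.37 (0.28 to 0.45) in fibroblast-like cells, a difference of -1.60. With clusters in place of the marker classes, and 1 weakly named cluster also left out, the first value was -0.18. For Sfrp5 in the same pair of libraries, it was 1.10 (0.26 to 1.95) in interzone-like and -0.87 (-1.05 to -0.70) in chondrocyte-like cells, 1.98 apart, though clusters turned the first value and Sfrp5 in interzone-like cells is not told apart from background.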

How the results depend on the processing

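TMM scaling and leaving out cells with markers of 2 lineages kept all 10 counts of changed members within 1.5 times the reported one, and no alternative moved the count for interzone-like against chondrocyte-like cells in the E14.5 control beyond that. Clusters gave 4 in place of 1 for chondrocyte-like cells between ages, 2 in place of 1 for interzone-like and 1 in place of 0 for chondrocyte-like cells of the library labelled G1KO (Dkk2 added, lower in the first and higher in the other, where it rests on 1 cluster with fibroblast genes), and 1 in place of 0 between the mutant libraries, where the stricter filter also gave 1. They gave no value for fibroblast-like cells between ages, and reversed Sfrp5 in interzone-like cells of the library labelled DCKO to -2.19; the count of 3 there shared 1 member, Dkk3, with the reported 3 and took in Dkk2. Clusters with a naming score of at least 0.8, chosen after seeing the data, changed the cells of 6 comparisons. They gave 3 in place of 1 for chondrocyte-like cells between ages and 1 in place of 0 between the mutant libraries, reversed Sfrp5 in interzone-like cells of the library labelled DCKO to -2.74, where the count of 2 shared 0 members with the reported 3, and gave 0 for chondrocyte-like cells of both mutant libraries. Of 50 single ratios they moved 28 beyond their interval. At least 3 Gdf5 UMIs gave 5 in place of 3 for interzone-like against chondrocyte-like cells at E13.5 and 2 in place of 1 for the library labelled G1KO, Dkk2 added. Means over cells gave 1 in place of 3 for interzone-like and 1 in place of 0 for chondrocyte-like cells of the library labelled DCKO. The cause was not tested. A 1.5-fold limit, which admits more by construction, gave 5 in place of 3 (interzone against chondrocyte, E13.5), 4 in place of 1 (age, chondrocyte), 3 in place of 1 and 2 in place of 0 (G1KO, interzone and chondrocyte), 5 in place of 3 and 3 in place of 0 (DCKO, interzone and chondrocyte) and 5 in place of 0 (between mutants). Without a UMI minimum the counts were 5 in place of 3 (age, interzone and fibroblast; DCKO, interzone), 2 in place of 1 (G1KO, interzone) and 1 in place of 0 (between mutants), and with at least 100 UMIs 1 in place of 3 (age, fibroblast). Of 82 single ratios, the stricter filter moved 0 beyond their interval, TMM 13 and means over cells 20, and of 74 clusters moved 49 and reversed 1 that had been past the fold; smaller ratios that changed sign are among those moved or within their interval. All barcodes moved 11 of 120 levels, and thinning moved 111 of 120 shares. No paired analysis was possible because there is 1 library per condition. Members with under 20 UMIs, such as Dkk1 in most classes, allow no ratio at this depth.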

Other observations

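Prehypertrophic chondrocyte-like cells, outside the comparisons above, had lower CPM of Sfrp1, Sfrp2, Sfrp5, Dkk2, Dkk3, Wif1 and Sostdc1 than chondrocyte-like cells in all 4 libraries. No share of all genes is given for the comparisons of this paragraph, so they are not shown to be particular to the members. Median depth in the E14.5 control was 18301 UMIs in prehypertrophic and 8058.5 in other chondrocyte-like cells. The intervals were apart in each library for Sfrp1, Sfrp2, Dkk3 and Sostdc1, overlapped in each for Dkk2, and overlapped at E13.5 for Sfrp5 and Wif1. Sfrp1 stood there at 77.8, 133, 86.4 and 63.9 CPM and Dkk2 at 5.34, 1.498, 3.101 and 0.968 CPM. Dkk1 was higher there at E13.5, with a log2 ratio of 3.64 (2.28 to 5.35) to chondrocyte-like cells. Dkk2 and Sostdc1 also separated fibroblast-like from chondrocyte-like cells: the log2 ratio for Dkk2 was 3.70 (3.36 to 4.05) at E13.5 and 5.12 (4.82 to 5.42) in the E14.5 control, and that for Sostdc1 2.42 (2.18 to 2.66) and 1.82 (1.46 to 2.16).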
